A study of Mus musculus with 2 samples.

Results

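DNase I accessibility was examined at 35 imprinted genes of the mouse, 29 of them protein-coding and 6 non-coding, out of 55413 annotated genes, and at 16 stretches of chromosome that hold them. The genes were taken from a list of named members of the known imprinted domains, and all 35 were found by symbol in GENCODE release M21 on mm10. The data were 2 DNase-seq libraries made from adrenal glands of B6CASTF1/J females, 4 days old, labelled as biological replicates 1 and 2 of a single group with no treatment. Each sample description mentions 3 females, both samples carry the same donor identifier, and the labels do not state how glands were pooled. B6CASTF1/J mice are first-generation hybrids of C57BL/6J and CAST/EiJ, but the files give 1 value per peak with both parental chromosomes added together. Nothing below therefore says which allele was open, and the reads of both parents were placed on the C57BL/6J reference. With 1 group there was no comparison between conditions, and values are given for each library.

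Imprinted genes are expressed only or mainly from the maternal or the paternal chromosome, some of them only in certain tissues or from certain promoters. Their state is set by control regions that are methylated in the egg or in the sperm, so that one allele carries DNA methylation and repressive chromatin while the other can bind factors such as CTCF, an insulator protein. Many of the genes act on fetal growth, and in the fetal and newborn adrenal gland Igf2, H19, Cdkn1c and Dlk1 are known to be expressed.

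The longer peak list of a library held 46031 peaks in replicate 1 and 87387 in replicate 2, and the number of reads behind them is unknown. Each peak carries the authors' own signal value, whose scaling is not stated. In peaks that overlapped 1 to 1 the value was typically 2.06 times as high in replicate 2 as in replicate 1, with an interquartile range of 1.63 to 2.54, so values are compared within a library and given for both. Every peak of the shorter list, called the stricter list here, held a position with a deposited false discovery rate below 0.001. Of 10 adrenal cortex markers, 4 had a peak at a transcription start site (TSS) in both libraries, among them Nr5a1 and Cyp11a1, and of 8 chromaffin markers of the medulla 4 did, among them Chga and Chgb. The defining catecholamine enzymes Th, Dbh and Pnmt had none in either library, and neither did the cortex genes Hsd3b1, Cyp11b1 and Mc2r.

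The control region between H19 and Igf2 is the textbook case of a methylation-sensitive insulator, and its sequence is shown first because the 2 libraries touched it in different places. H19, a non-coding RNA of the maternal allele, and Igf2, a growth factor made from the paternal allele, share enhancers, and CTCF bound upstream of maternal H19 keeps Igf2 from them. A narrow 14-letter CTCF consensus, the H19 form, was found 3 times between 1 and 10 kb upstream of the H19 5′ end, although it occurs at only 58 places in the whole reference. Besides H19 the only annotated gene with 2 or more of these matches in the same window was Mir675, which lies inside H19. A wider 14-letter consensus that contains it, with more free positions, matched 6 times. Of all genes, 0.0559% held 5 or more matches of the wider form in that window. The 6 sites are given 5′ to 3′ in the direction of the match, with the matched letters in capitals and with the distance upstream of H19, in GRCm38.p6. The match farthest from H19 is shown by a 12-letter CTCF consensus with which it overlaps.
2173 bp, chr7:142580299-142580332, minus strand: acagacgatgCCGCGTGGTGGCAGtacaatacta
2586 bp, chr7:142580712-142580745, plus strand: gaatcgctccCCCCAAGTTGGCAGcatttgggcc
2628 bp, chr7:142580754-142580787, minus strand: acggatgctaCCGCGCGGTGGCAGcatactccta
3654 bp, chr7:142581780-142581813, minus strand: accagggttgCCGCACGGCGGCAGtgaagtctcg
3898 bp, chr7:142582024-142582057, minus strand: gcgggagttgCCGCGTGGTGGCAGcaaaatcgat
9705 bp, chr7:142587832-142587863, plus strand: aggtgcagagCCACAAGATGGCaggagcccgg

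Replicate 1 had 1 peak in this stretch, 136 bp wide, with a signal of 0.768, and it held the sites at 2586 and 2628 bp. Replicate 2 had 1 peak of 115 bp with a signal of 0.968, and a footprint of 24 bp at its edge covered all 14 matched letters of the site at 3654 bp, of which the peak itself held only the last few in chromosome order. A footprint is a short run of bases protected from the enzyme inside an open region. The 2 peaks did not overlap, and both were absent from the stricter list, with lowest false discovery rates of 0.00840 in replicate 1 and 0.0112 in replicate 2. They ranked at the 37.9th percentile of the peaks of replicate 1 and the 49.0th of replicate 2. The first sequence is the replicate 1 peak at chr7:142580714-142580849 and the second is the footprint and peak of replicate 2 at chr7:142581788-142581915, both on the minus strand, which is the strand of H19, with CTCF matches in capitals. The second site of the replicate 1 peak reads in the opposite direction to the first.
Replicate 1 peak: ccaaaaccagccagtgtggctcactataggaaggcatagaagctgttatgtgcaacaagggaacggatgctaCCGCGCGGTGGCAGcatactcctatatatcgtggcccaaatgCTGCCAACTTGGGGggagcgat
Replicate 2 footprint and peak: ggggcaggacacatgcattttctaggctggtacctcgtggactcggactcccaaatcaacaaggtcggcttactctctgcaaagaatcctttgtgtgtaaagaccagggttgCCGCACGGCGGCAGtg

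**Figure D1:**
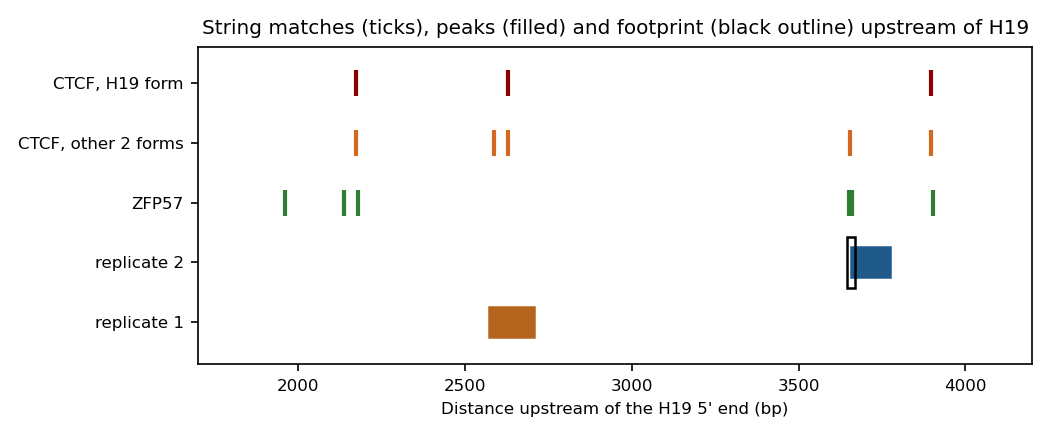
Map of the stretch upstream of the H19 5′ end; the x axis is the distance upstream in bp, ticks are string matches on either strand, filled bars are peaks of each library and the black outline is the footprint of replicate 2. The peak of replicate 1 lies over the sites at 2586 and 2628 bp and that of replicate 2 starts within the site at 3654 bp, with no overlap between the libraries.

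H19 itself was without a TSS peak in either library, and within 1 kb of its 7 annotated TSSs no position had a false discovery rate below 0.05. The nearest peak found in both libraries on the upstream side lay 32618 bp from the nearest H19 TSS, inside the non-coding gene Gm33148, with signals of 1.08 in replicate 1 and 1.71 in replicate 2. On the downstream side a shared peak in Nctc1, a non-coding transcript of the region that holds mesodermal enhancers of the pair, had 0.674 in replicate 1 and 1.32 in replicate 2. The domain's strongest shared peak was the promoter of Mrpl23, a mitochondrial ribosomal protein gene, at 2.36 in replicate 1 and 5.46 in replicate 2. Igf2 had 1 weak peak per library at internal TSSs, 0.776 in replicate 1 and 1.06 in replicate 2. These lay 6070 and 7220 bp inside the gene, did not overlap each other and were outside the stricter list. In bulk tissue, opening in fewer cells and weaker opening in each cell cannot be told apart.

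Across the list, 29 of the 35 genes (82.9%) had a peak within 1 kb of a TSS in both libraries, against 30.1% of all annotated genes. The 29 coding members gave 26, or 89.7%, where all protein-coding genes gave 60.8%. Among the 6 non-coding members Kcnq1ot1, Meg3 and Airn were open in both and H19, Rian and Mirg in neither, against 22% of long non-coding genes. Requiring that the peaks of the libraries overlap left 26 members (74.3%), against 29.8% of all genes. Requiring the stricter list in both left 22 (62.9%), against 26.3% of all genes and 54.3% of coding genes. A footprint lay in a TSS peak in both libraries for 28 members, against 28.5% of all genes. Of the 16692 genes with a TSS peak in both, 15808 had such a footprint, so this count largely follows the peak count. The list holds genes with several TSSs, and at the outermost 5′ end alone 22 members (62.9%) had a peak in both, against 28.2% of all genes and 56.3% of coding genes. The 29 coding members alone gave 20 at the 5′ end, or 69.0%.

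The 6 genes without a TSS peak in both were H19, Kcnq1, Rian, Mirg, Ndn and Rtl1. For H19, Rian, Mirg and Ndn no position in the TSS windows passed a false discovery rate of 0.05 in either library, and for Kcnq1 only 15 bp did, in replicate 2, with a lowest value of 0.0350. Ndn has 1 annotated TSS, and a shared peak lay 1722 bp downstream of it, outside the window. Rtl1 had peaks only in replicate 2, the strongest at 0.387. In 7 genes the peaks found in both libraries were internal, over 1 kb from the 5′ end: Igf2, Meg3, Mest, Snrpn, Grb10, Plagl1 and Nnat. By the allele known from the mouse literature, 10 of 14 maternally expressed members and 19 of 21 paternally expressed members had a TSS peak in both libraries. The maternally expressed members without one were Kcnq1 and the non-coding H19, Rian and Mirg. Of all coding genes 60.8% had one, and of long non-coding genes 22%. The counts by allele are not matched for gene type. The allele was not measured here, and for Ube3a it applies to neurons and for Inpp5f to the internal promoter in brain.

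Levels spanned a wide range. The strongest TSS peak of a member had signals of 0.571 to 3.99 in replicate 1, with a median of 1.31 over the 29 genes with a peak there. In replicate 2 it had 0.387 to 8.77, with a median of 2.27 over 30 genes. Protein-coding genes open in both libraries had medians of 2.11 in replicate 1 and 4.33 in replicate 2, so the medians of the list were lower. The sets are not alike. The list's medians include the non-coding Kcnq1ot1, Meg3 and Airn and, in replicate 2, Rtl1, which had peaks in that library only. Peg3 and Usp29 enter with the same peak, as do Peg10 and Sgce. Where the strongest peaks of the libraries overlapped, in 23 genes, replicate 2 was 2.04 times as high as replicate 1 at the median, from 1.11 times at Igf2r to 3.10 times at Peg3 and Usp29.

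**Figure D2:**
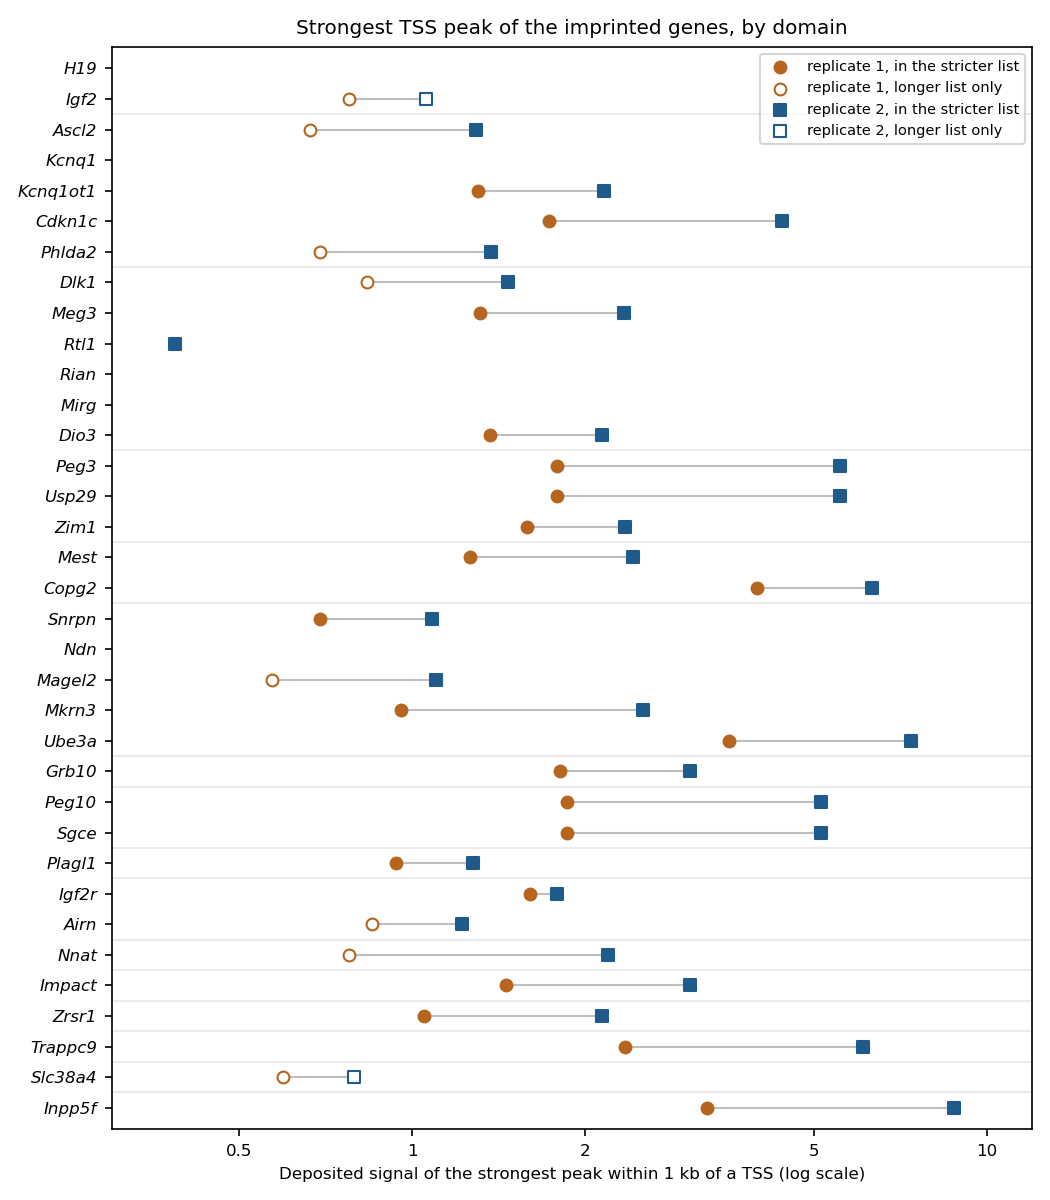
Deposited signal of each gene's strongest peak within 1 kb of a TSS (x axis, log scale, the authors' units), with genes in rows ordered by domain, circles for replicate 1 and squares for replicate 2, and open symbols for peaks outside the stricter list. Inpp5f, Ube3a, Copg2 and Trappc9 lie farthest to the right in replicate 2, and H19, Kcnq1, Rian, Mirg and Ndn have no symbol.

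The ratio of observed to expected CpG within 500 bp of the 5′ end had a median of 0.621 over the 22 members open there in both libraries, from 0.421 to 0.918. In the other 13 members the median was 0.245, from 0.0608 at Igf2 to 0.869 at Nnat. Coding genes with a 5′ end peak in both libraries had a median of 0.737, and those without had 0.198. Open 5′ ends thus had more CpG than the others, both in the list and among coding genes.

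The Kcnq1 domain on chromosome 7 held 32 shared peaks in 636 kb, the highest count of the 16 domains. Per 100 kb it held 5.03, below 7.66 at Zrsr1, 7.29 at Impact and 5.94 at Inpp5f. Kcnq1ot1, the paternal antisense RNA that silences its neighbours, starts inside Kcnq1, a potassium channel gene, at the maternally methylated control region KvDMR1. Its promoter peak had signals of 1.30 in replicate 1 and 2.16 in replicate 2, and it was in the stricter list of both, with 3 footprints in replicate 1 and 8 in replicate 2. The replicate 2 peak is shown on the minus strand, the strand of Kcnq1ot1. Its 10 CpG sites are in capitals, because DNA methylation can occur at CpG, but methylation was not measured here. All 10 sites lie on the gene side of the peak's centre.
Kcnq1ot1 promoter peak, chr7:143296461-143296740, minus strand: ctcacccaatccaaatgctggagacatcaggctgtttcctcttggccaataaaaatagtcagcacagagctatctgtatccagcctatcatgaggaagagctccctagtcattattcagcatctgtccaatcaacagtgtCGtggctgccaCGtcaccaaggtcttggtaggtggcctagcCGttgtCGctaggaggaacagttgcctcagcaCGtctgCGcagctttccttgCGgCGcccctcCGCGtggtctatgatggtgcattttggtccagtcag

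The strongest member of the domain was Cdkn1c, which encodes the cell cycle inhibitor p57, with 1.73 in replicate 1 and 4.41 in replicate 2. Ascl2, a transcription factor of the placenta, had 0.665 in replicate 1 and 1.29 in replicate 2, in separate peaks. Phlda2, a regulator of placental growth, had 0.691 in replicate 1 and 1.37 in replicate 2. Both were outside the stricter list in replicate 1. Kcnq1 had no TSS peak, but an intronic peak 44827 bp downstream of the nearest Kcnq1 TSS reached 1.75 in replicate 1 and 6.18 in replicate 2, above every member's own TSS peak of the domain in replicate 2. An intergenic peak 2891 bp upstream of the nearest Phlda2 TSS had 1.26 in replicate 1 and 6.04 in replicate 2.

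Within 10 kb upstream of Cdkn1c, starting 3051 bp from it, stood 3 shared peaks with a CTCF match under a footprint in both libraries. The second of these was the strongest of the 3, at 1.95 in replicate 1 and 4.76 in replicate 2. They are shown as footprinted matches close to a member's promoter, with the match in capitals.
Cdkn1c minus 3051 bp, chr7:143464068-143464101, minus strand: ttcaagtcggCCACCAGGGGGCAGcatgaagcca
Cdkn1c minus 5451 bp, chr7:143466486-143466519, minus strand: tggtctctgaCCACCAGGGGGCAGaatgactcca
Cdkn1c minus 9091 bp, chr7:143470150-143470181, minus strand: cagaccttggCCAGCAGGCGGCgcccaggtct
The strongest shared peak of the whole domain in replicate 2, 2.93 in replicate 1 and 9.88 in replicate 2, lay at the non-coding gene Tspan32os, 38967 bp upstream of Ascl2. In replicate 1 the promoters of Nap1l4 and Cd81 were higher, at 4.18 and 3.34. The Tspan32os peak's CTCF match was footprinted in both libraries, and the string CAAGGTCA, a site type of the adrenal regulator SF1, follows in the same peak. That string was in 1.41% of all shared peaks and in 2 of those in the domains.
Tspan32os peak, chr7:143008203-143008234, plus strand: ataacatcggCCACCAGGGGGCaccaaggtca

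**Figure D3:**
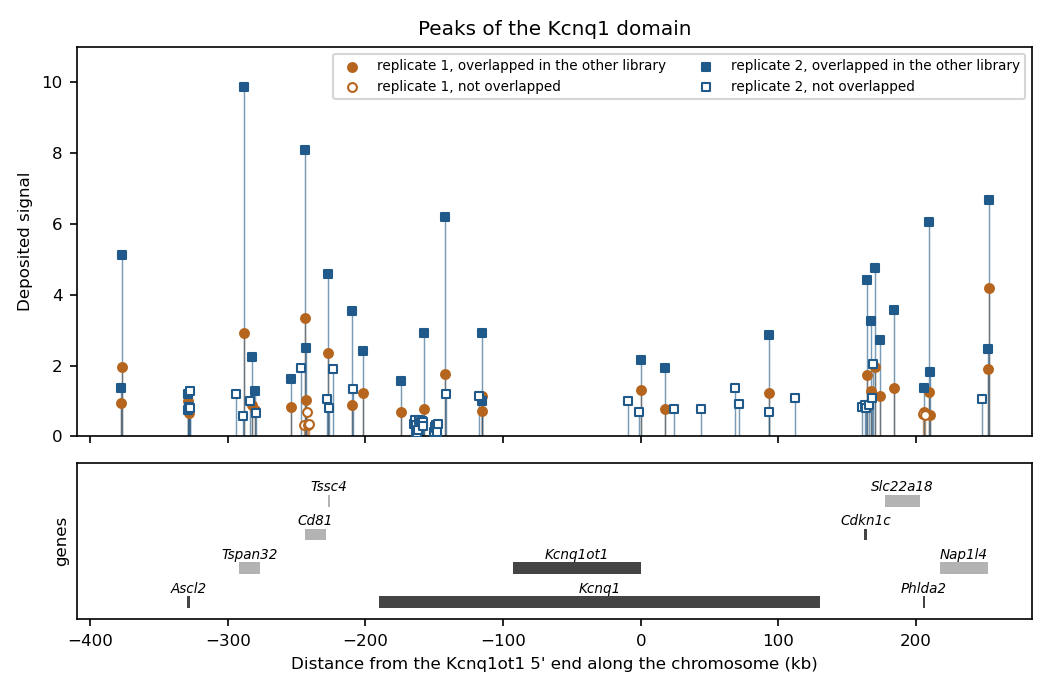
Peaks of the Kcnq1 domain by distance from the Kcnq1ot1 5′ end in kb (x axis) with the deposited signal of each peak (y axis), circles for replicate 1, squares for replicate 2, and filled symbols for peaks overlapped in the other library; bars below are genes, dark for members of the list. The tallest peak of replicate 2, at 9.88, stands left of Kcnq1 near Tspan32, and Kcnq1ot1 starts at a peak of 2.16 in replicate 2.

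In the Dlk1-Dio3 domain on chromosome 12, proteins are made from the paternal allele and RNAs from the maternal allele. Dlk1, a membrane-bound ligand related to Notch ligands, had 0.836 in replicate 1 and 1.47 in replicate 2 near its 5′ end. That replicate 1 peak was 79 bp wide, held 0 footprints and was outside the stricter list. The Dlk1 TSS peaks of replicate 1 that were in the stricter list lay at an internal TSS, with 0.324 to 0.358. Dio3, the deiodinase that inactivates thyroid hormone, had 1.36 in replicate 1 and 2.14 in replicate 2 at a promoter it shares with the antisense gene Dio3os. Rtl1, a retrotransposon-derived gene, had none in replicate 1. Meg3, the first RNA of the maternal cluster, had its strongest peak 2050 bp inside the gene, at 1.31 in replicate 1 and 2.34 in replicate 2. At its 5′ end only replicate 2 had a peak, of 1.72. Rian, which hosts small nucleolar RNAs, and Mirg, which hosts microRNAs, had no TSS peak. The internal Meg3 peak, shown on the strand of the gene, holds the consensus of NRF1, a transcription factor, in capitals, which 0.84% of all shared peaks held.
Meg3 peak, chr12:109542941-109543160, plus strand: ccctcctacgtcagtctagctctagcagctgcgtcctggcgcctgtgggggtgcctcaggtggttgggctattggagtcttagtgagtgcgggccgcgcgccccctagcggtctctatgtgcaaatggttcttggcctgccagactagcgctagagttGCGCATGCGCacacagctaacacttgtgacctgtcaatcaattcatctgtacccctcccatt

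The stretch 5 to 25 kb upstream of Meg3, which contains the intergenic control region of this domain, had 0 peaks in either library. The strongest shared peaks of the domain were away from the genes. One, 14912 bp upstream of Dlk1, had 2.29 in replicate 1 and 6.76 in replicate 2, well above the Dlk1 promoter itself. Another, 210937 bp beyond the nearest Mirg TSS, had 2.30 in replicate 1 and 5.12 in replicate 2 and held a CTCF match that was footprinted in replicate 2 only.

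At the Peg3 domain on chromosome 7 the control region and the promoter coincide. Peg3 encodes a zinc finger protein and shares a divergent promoter with Usp29, a member of the deubiquitinase family. Within 1 kb of a TSS both genes had the same strongest peak, of 1.79 in replicate 1 and 5.56 in replicate 2. That peak was centred 840 bp inside Peg3 and 987 bp from the nearest Usp29 TSS. A second peak, over the Peg3 5′ end itself, had 1.25 in replicate 1 and 2.29 in replicate 2. It was centred 217 bp from a Usp29 TSS in replicate 1 and 97 bp in replicate 2. Zim1, a zinc finger gene of the maternal allele, had 1.59 in replicate 1 and 2.24 in replicate 2 at its 5′ end. A second Zim1 peak at an internal TSS had 0.810 in replicate 1 and 2.35 in replicate 2. The string AANATGGCG of YY1, a zinc finger factor known to bind tandem sites in this control region, was found 10 times from 5 kb inside Peg3 to 2 kb upstream, every time on the plus strand, which is opposite to Peg3. As many were found in 12 of 21938 coding windows of the same length, or 0.0547%, while 12.8% held at least 1. In both libraries 9 of the 10 lay in a peak, but footprints covered 4 in replicate 1 and 1 in replicate 2, with 0 in both. The strongest peak is shown on the strand of Peg3, where the YY1 string reads CGCCATNTT; its 2 matches are in capitals.
Peg3 peak, chr7:6729481-6729700, minus strand: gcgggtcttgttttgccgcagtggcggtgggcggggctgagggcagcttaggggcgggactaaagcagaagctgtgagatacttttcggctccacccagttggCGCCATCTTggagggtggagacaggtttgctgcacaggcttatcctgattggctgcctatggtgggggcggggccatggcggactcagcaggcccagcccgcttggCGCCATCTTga

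In the Snrpn domain, the mouse counterpart of the Prader-Willi and Angelman region, the strongest gene was Ube3a, a ubiquitin ligase that is imprinted in neurons. It had 3.56 in replicate 1 and 7.39 in replicate 2, at percentiles 87.1 in replicate 1 and 82.7 in replicate 2 of open coding promoters. Snrpn, a splicing protein gene whose promoter is the control region, had only 0.691 in replicate 1 and 1.08 in replicate 2, at a TSS 135078 bp inside the annotated gene. Mkrn3, of the makorin family, had 0.955 in replicate 1 and 2.52 in replicate 2. Magel2, a MAGE family gene, had 0.571 in replicate 1 and 1.10 in replicate 2. Ndn, another MAGE family gene, lacked a TSS peak, but a shared peak 1722 bp downstream of its start, in annotated UTR, had 1.18 in replicate 1 and 3.10 in replicate 2. At 3291 kb the window was the longest, and it held 16 shared peaks, or 0.486 per 100 kb, against 1.44 over the genome.

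Several control regions of this kind carry the hexamer TGCCGC, which ZFP57, a zinc finger protein that keeps imprints in the early embryo, binds when its CpG is methylated. It was present in the promoter peaks of Snrpn, Mest, Inpp5f and Peg13 below, in capitals on the strand of each gene, where GCGGCA is the hexamer read from the other strand. These were picked because they hold it. Of the 75 shared domain peaks within 1 kb of a TSS, 19 (25.3%) held it in their central 200 bp. Of all shared peaks within 1 kb of a TSS 17.7% did. The 75 include promoters of neighbouring genes. The shared peaks at the Kcnq1ot1 promoter and the internal Nnat TSS did not hold it in their central 200 bp. The wider control region windows described below held 3 matches at Kcnq1ot1 and 8 at Nnat. Another shared Peg13 peak, centred 67 bp from the TSS, was without it in its central 200 bp, while the printed one is centred 253 bp away. The Snrpn, Mest and Inpp5f stretches are cut so that annotated UTR is left out.
Snrpn, chr7:60005112-60005220, minus strand: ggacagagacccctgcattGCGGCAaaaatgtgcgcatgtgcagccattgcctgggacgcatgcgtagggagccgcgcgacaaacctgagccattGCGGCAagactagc
Mest, chr6:30737901-30738049, plus strand: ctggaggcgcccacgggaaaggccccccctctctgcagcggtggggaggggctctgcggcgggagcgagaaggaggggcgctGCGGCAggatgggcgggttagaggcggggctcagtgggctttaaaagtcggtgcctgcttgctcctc
Inpp5f internal promoter, chr7:128688321-128688488, plus strand: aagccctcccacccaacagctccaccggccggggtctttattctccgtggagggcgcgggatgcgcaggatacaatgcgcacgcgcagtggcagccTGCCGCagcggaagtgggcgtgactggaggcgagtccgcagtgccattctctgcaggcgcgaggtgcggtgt
Peg13, chr15:72809981-72810160, minus strand: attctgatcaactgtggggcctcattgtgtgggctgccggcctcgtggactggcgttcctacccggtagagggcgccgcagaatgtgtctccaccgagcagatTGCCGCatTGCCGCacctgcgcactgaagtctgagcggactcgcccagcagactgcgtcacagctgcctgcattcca

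The remaining domains hold 1 or 2 members each. Mest, of the hydrolase family, was open at an internal promoter 14474 bp from the outermost TSS, with 1.26 in replicate 1 and 2.32 in replicate 2, and again 939 bp upstream of a TSS of that promoter, with 1.03 in replicate 1 and 2.43 in replicate 2. Its neighbour Copg2, a coatomer subunit gene, had 3.99 in replicate 1, the highest of the list there, and 6.32 in replicate 2. Grb10, an adaptor that restrains insulin signalling, had 1.81 in replicate 1 and 3.04 in replicate 2 at an internal TSS, and 1.04 in replicate 1 and 1.89 in replicate 2 near its upstream TSSs. Peg10, a retrotransposon-derived gene, and Sgce, which encodes a sarcoglycan, are transcribed away from each other and shared a peak of 1.86 in replicate 1 and 5.15 in replicate 2. The 98 bp between their 5′ ends hold 13 CpG sites, shown in capitals together with 1 ZFP57 hexamer that overlaps them.
Sgce to Peg10, chr6:4747208-4747305, plus strand: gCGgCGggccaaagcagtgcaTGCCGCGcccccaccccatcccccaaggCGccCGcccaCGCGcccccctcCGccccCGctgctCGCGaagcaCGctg
A stronger peak lay 1925 bp downstream of the nearest Peg10 TSS, with 2.96 in replicate 1 and 5.95 in replicate 2. Plagl1, a zinc finger gene that restrains growth, had 0.938 in replicate 1 and 1.28 in replicate 2 at an internal promoter 30307 bp from its 5′ end.

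Inpp5f, a phosphatase gene, showed both kinds of promoter. Its 5′ end had 3.27 in replicate 1 and 8.77 in replicate 2, the highest of the list in replicate 2, while the internal promoter shown above, which is the imprinted one in mouse brain, had 1.04 in replicate 1 and 2.01 in replicate 2. A peak with a footprinted CTCF match stood 1882 bp beyond that internal promoter, at 2.05 in replicate 1 and 7.25 in replicate 2. Trappc9, a gene of vesicle trafficking, had 2.35 in replicate 1 and 6.10 in replicate 2, and the paternal non-coding gene Peg13 inside it had 1.42 in replicate 1 and 3.47 in replicate 2. An intergenic peak 6407 bp upstream of Trappc9 was stronger than either, at 4.19 in replicate 1 and 8.51 in replicate 2.

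Zrsr1, a splicing factor gene that arose as a retrogene in an intron of Commd1, had 1.05 in replicate 1 and 2.14 in replicate 2. That peak was centred 926 bp inside the gene in replicate 1 and 956 bp in replicate 2. The TSS nearest to the replicate 2 peak, at 102 bp, was one of Commd1. At the Zrsr1 5′ end itself a peak had 0.571 in replicate 1 and 1.08 in replicate 2, outside the stricter list of both. A Commd1 promoter peak 9083 bp from the nearest Zrsr1 TSS had 3.74 in replicate 1 and 9.89 in replicate 2. Nnat, which encodes a proteolipid, had 0.776 in replicate 1 and 2.19 in replicate 2 at an internal TSS. Its host gene Blcap, by comparison, had 1.58 in replicate 1 and 2.86 in replicate 2. Impact, a regulator of translation, had 0.930 in replicate 1 and 1.495 in replicate 2 at the 5′ end and 1.46 in replicate 1 and 3.04 in replicate 2 at internal TSSs. Slc38a4, an amino acid transporter gene, had 0.597 in replicate 1 and 0.792 in replicate 2, in peaks that did not overlap and were outside the stricter list.

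Igf2r, the receptor that clears IGF2, had 1.60 in replicate 1 and 1.79 in replicate 2, the smallest ratio between libraries of the 23 genes compared. Airn, the paternal antisense RNA that starts inside Igf2r, had 0.853 in replicate 1 and 1.22 in replicate 2, in peaks that did not overlap. Along the Igf2r gene replicate 2 had 36 peaks and replicate 1 had 4. Of the 36, 26 had a signal below 0.5, from 0.123 to 0.493, and 19 of these were in the stricter list. All but 1 of the 26 lay between the 5′ ends of Airn and Igf2r, at 12744438 to 12757880 on chromosome 17, with a few stronger peaks among them. Replicate 1 had 0 peaks below 0.5 in Igf2r. Groups of peaks below 0.5 in replicate 2 alone were also seen in the Kcnq1 gene, with 19 peaks against 0 in replicate 1, and over Rtl1 and 5 kb upstream, with 9 against 0. Between Dlk1 and Meg3 it was replicate 1 alone that had them, 11 peaks of 0.145 to 0.290 against 0 in replicate 2, and 7 of the 11 were in the stricter list. In the Dlk1 gene they were in both libraries, 5 in replicate 1 and 8 in replicate 2. Such peaks were not confined to these genes. Among the domain windows Snrpn had the most in replicate 2, 37, with 14 in replicate 1. The Nnat window had 5 in replicate 2 and 0 in replicate 1. Over the genome 14.0% of replicate 1 peaks and 22.7% of replicate 2 peaks were below 0.5, and of these 9.40% in replicate 1 and 35.1% in replicate 2 were in the stricter list. The part of the greater peak number of replicate 2 in these groups was not tested.

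**Figure D4:**
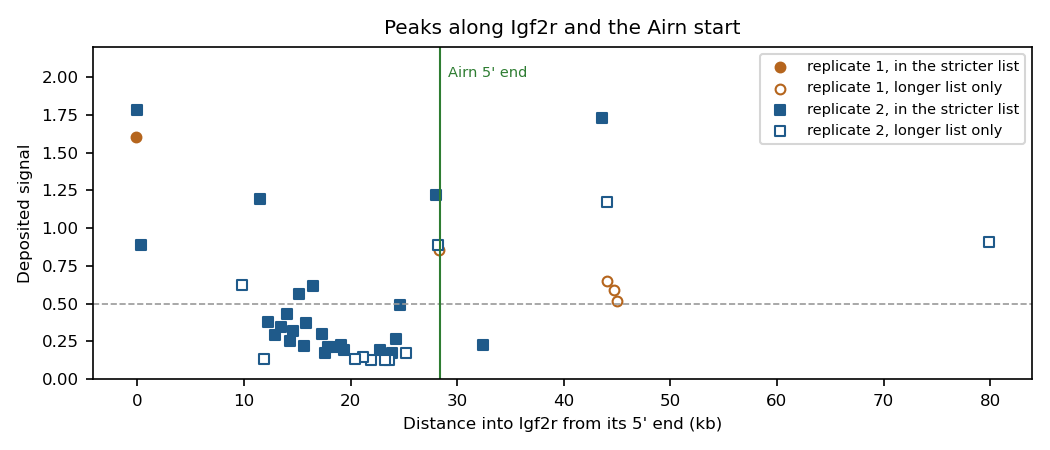
Peaks along Igf2r by distance from its 5′ end in kb (x axis) with the deposited signal (y axis), circles for replicate 1 and squares for replicate 2, open where outside the stricter list; the dashed line marks a signal of 0.5 and the vertical line the Airn 5′ end. The weak peaks, 26 in replicate 2 and 0 in replicate 1, lie on the Igf2r promoter side of the Airn 5′ end except for 1.

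Control regions were looked at in 16 windows placed by distance from annotated genes, not at mapped methylated regions, and 12 windows held a shared peak. Of 7 windows within 2 kb of a gene's 5′ end 6 held one, against 57.9% of the 5′ ends of coding genes, and of 7 within 2 kb of any TSS 6 held one, against 62% of coding genes. Both windows placed farther upstream, at H19 and Meg3, held 0. The Impact window is at its 5′ end and leaves out the internal peaks, and the strongest peak of the Inpp5f window is the 5′ end peak and not the internal promoter. In each library 15 of the 16 windows held a peak. The 4 without a shared peak were those upstream of H19, between Dlk1 and Meg3, at Airn and at Slc38a4. The domains together, with 50 kb on either side of the outermost genes, spanned 7822 kb and held 196 peaks in replicate 1, 384 in replicate 2 and 149 shared ones, or 1.90 per 100 kb against 1.44 over the genome. Of the 149, 75 lay within 1 kb of a TSS (50.3%, against 56.4% of all shared peaks) and 74 farther away.

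CTCF strings were about as frequent in the shared peaks of the domains as in all shared peaks. Any of the 3 strings was found in the central 200 bp of 28 of the 149 peaks (18.8%), against 18.6% of all 39266 shared peaks, and in 22 of the 74 peaks away from TSSs (29.7%), against 32.3%. Of the 28 matches, 18 were under a footprint in both libraries (64.3%), against 71.7% of the matches in all shared peaks. The narrow H19 form was in 0 of the 149 and in 0.0306% of all shared peaks. The ZFP57 hexamer was in 23 of the 149 (15.4%), against 12.9%, and within 1 kb of a TSS in 19 of 75 (25.3%), against 17.7%. These peaks include promoters of neighbouring genes. In the Zrsr1 domain the 4 such peaks lay at Commd1, Cct4 and Fam161a and none at Zrsr1. YY1 strings were in 8 (5.37%), against 2.18%, and 3 of these were at Peg3. All strings were searched on both strands. A match is a run of letters and not a measured binding site.

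**Figure D5:**
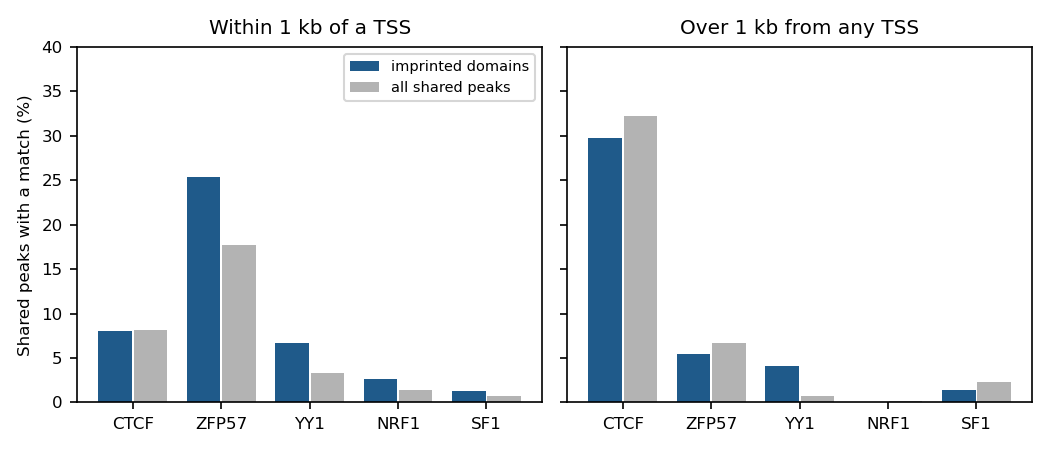
Share of shared peaks with a string match in the central 200 bp (y axis, percent), for the imprinted domains in blue and all shared peaks in grey, split into peaks within 1 kb of a TSS (left) and farther away (right). The CTCF bars are near each other in both panels, and the ZFP57 bar of the domains is higher near TSSs, 25.3% against 17.7%. The domain bars include promoters of neighbouring genes.

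A second list of 40 imprinted genes outside the 35, compiled from general knowledge, gave 27 with a TSS peak in both libraries (67.5%), against 30.1% of all genes. Its 35 coding genes gave 25 (71.4%), against 60.8% of coding genes, and 20 of the 40 were in the stricter list of both libraries, against 26.3% of all genes and 54.3% of coding genes. Among them were Gnas, which encodes a G protein subunit, at 1.71 in replicate 1 and 3.60 in replicate 2, and its antisense gene Nespas, at 1.65 in replicate 1 and 2.45 in replicate 2. There were 6 with no TSS peak in either library, Slc22a18, Zim2, Cpa4, Gpr1, Calcr and Slc22a2.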

How the data were processed

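DNase-seq peaks, footprints and cut-rate lists were used as deposited, on mm10 per the labels. The deposited peak lists hold 1 signal value per peak, made by the authors for each library on its own. The deposited cut-rate lists hold adjusted p-values (false discovery rates), given only below 0.05, and the deposited footprints carry the same p-value of 0.01 throughout. The peak caller, its filters and the depth are unknown. The GRCm38.p6 reference and GENCODE M21 were used, with Python 3.11.15, pysam 0.24.0 and bedtools 2.31.1. Peaks within 1 kb of any annotated TSS were assigned to a gene; shared peaks are replicate 2 peaks overlapped by at least 1 bp in replicate 1. Positions are 1-based. All 35 members are named, as are, outside them, genes of the second imprinted list, genes sharing a member's TSS peak and the nearest genes of the strongest other domain peaks; Nctc1 and Mir675 were named after their values were seen. No test was made, since there is 1 group of 2 libraries. The members, lists, strings and windows were chosen with earlier results of these data known, and the control region windows were placed by distance from genes. The interval and string functions were tested on simulated data. Alternatives were the stricter list, each library alone, other windows, flanks and overlaps, the basic annotation and single CTCF strings.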

Additional observations from a re-analysis of the deposited data

How the results depend on the processing

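The count of 29 members with a TSS peak in both libraries ranged from 22 to 31 over the alternatives, that of 22 at the 5′ end from 16 to 26, that of 28 with a footprint from 22 to 30, and that of 12 control windows with a shared peak from 11 to 15. The number of shared peaks in the domains, 149, fell to 93 with the stricter list and lay between 196 and 384 when 1 library was left out. Those with a CTCF match, 28, fell to 17 with the stricter list, ranged from 27 to 46 when 1 library was left out, and were 0 with the narrow H19 form alone and 11 with the wider 14-letter form alone. Leaving out a library lifts the need for overlap. No paired analysis was possible because there is 1 group. All signals were whole multiples of 0.00853 in replicate 1 and of 0.00880 in replicate 2, within 0.05 of a step, as scaled counts would be, but the sources used here do not state what 1 step stands for, so no counting interval is given. With 2 libraries, a missing peak is not evidence of closed chromatin.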
